A study of Mus musculus with 6 samples.

Results

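The subject here is Angptl4 and 9 further genes of the PPAR lipid pathway: the receptor genes Ppara, Ppard and Pparg, and the lipid genes Pdk4, Cpt1a, Plin2, Cd36, Fabp4 and Lpl. They were measured in mouse embryonic fibroblasts, connective tissue cells grown from whole embryos. Members were all transcript probes whose single annotated gene symbol is 1 of these 10 names. The rule found 10 probes for 9 genes, out of 34967 transcript probes and 18069 named genes on the array, and no probe carried the symbol Cd36, which was not analysed here. Angptl4 was picked for its difference between the genotypes in these same data, so its values are given as a description with no test. The others were picked as receptors, targets and lipid genes, with results of the same comparison already known. The question was whether the difference in Angptl4 went with differences in other PPAR targets.

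Cultures C4, C3 and B1 came from Ing1-deficient embryos, in which a gene-trap cassette disrupts the Ing1 locus. Cultures H2, H3 and I2 came from wild-type littermates, and no treatment is named for either genotype. Each culture was an early-passage preparation from 1 embryo and was hybridised to its own CodeLink whole-genome array, so n = 3 for each genotype. The labels give no strain, embryo age or sex, do not say which cultures share a litter, and do not say how many copies of the locus carry the cassette.

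Signal is given in normalized units, where 1 is the median transcript probe of that array. The scanner software gave each spot a flag, good or not, and 55.5% to 62.1% of the transcript probes were flagged good per array. The median spot stood 18.8 to 25.4 intensity units over its background. Ing1 itself read 1.38, 0.93 and 1.39 in the deficient cultures (C4, C3, B1), against 11.7, 11.4 and 11.1 in wild type (H2, H3, I2), which fits the labels. All 18 fibroblast markers listed for this work had a good flag on all 6 arrays.

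The PPARs are nuclear receptors that bind fatty acids and act on DNA as a pair with a retinoid X receptor, at a direct repeat of the hexamer AGGTCA. PPARα is best known for fatty acid oxidation in liver, PPARδ is broadly expressed, and PPARγ drives adipocyte differentiation. Angptl4 encodes a secreted inhibitor of lipoprotein lipase and is a classic target of all these receptors, and it is also known to respond to low oxygen and to glucocorticoids. The other lipid genes act at successive steps: lipoprotein lipase (Lpl) frees fatty acids from circulating triglyceride, Cd36 and Fabp4 carry them into and through the cell, Plin2 coats the droplets that store them, and Cpt1a and Pdk4 favour their oxidation.

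To show the promoters that the comparison touches, the 250 bases before the annotated start were taken from RefSeq (GRCm38.p6) and read on both strands for 2 motifs. The motifs were the full repeat, 2 copies of the hexamer spaced by any 1 base, and the single hexamer itself, so that every full repeat would also hold the hexamer. On the other strand the hexamer reads TGACCT. Windows were matched for 7 of the 10 genes, 9 windows in all; none is counted for Angptl4, Fabp4 or Lpl. The full repeat was in 0 of the 9 and in 0.0335% of all 32851 windows of that length. The hexamer was in 5 of the 9, against 14.0% of all windows, and those 5 belong to Pparg, with 2 of its 3 windows, Cpt1a, Plin2 and Cd36. The windows of Cpt1a and Plin2, genes whose probes read higher in deficient cells, and of Pdk4, whose probe read lower, are shown 5′ to 3′ with the hexamer in capitals. They lie at chr19:3323051-3323300 on the plus strand (Cpt1a), chr4:86670060-86670309 on the minus strand (Plin2) and chr6:5496279-5496528 on the minus strand (Pdk4).
Cpt1a: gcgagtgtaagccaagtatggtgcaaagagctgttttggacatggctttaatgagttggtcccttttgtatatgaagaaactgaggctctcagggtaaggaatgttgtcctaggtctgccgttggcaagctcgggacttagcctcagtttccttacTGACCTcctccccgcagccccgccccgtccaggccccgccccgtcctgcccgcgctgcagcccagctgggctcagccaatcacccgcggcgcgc
Plin2: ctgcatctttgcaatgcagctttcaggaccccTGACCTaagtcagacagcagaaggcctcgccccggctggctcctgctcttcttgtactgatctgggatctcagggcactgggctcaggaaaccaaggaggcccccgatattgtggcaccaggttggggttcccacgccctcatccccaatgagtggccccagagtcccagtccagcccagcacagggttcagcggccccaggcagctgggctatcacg
Pdk4: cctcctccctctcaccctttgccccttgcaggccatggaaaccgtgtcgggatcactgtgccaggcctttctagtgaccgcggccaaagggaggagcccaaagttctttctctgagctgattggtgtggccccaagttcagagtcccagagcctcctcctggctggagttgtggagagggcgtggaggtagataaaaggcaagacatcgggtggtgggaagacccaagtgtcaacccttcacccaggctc
The match begins 94 bases before the start in Cpt1a and 218 bases before it in Plin2. In both it reads TGACCT, so AGGTCA lies on the strand opposite to the one printed. The hexamer is not in the Pdk4 window. It does lie in windows of Pparg, whose log2 difference was negative as well (-0.28, not past the threshold). Such a match is a description of these letters and shows no binding.

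Angptl4 was far higher in every deficient culture. Its probe read 16.0, 29.3 and 21.9 in C4, C3 and B1, against 0.982, 4.48 and 1.75 in H2, H3 and I2, with a good flag on all 6 spots. The groups did not overlap, and the lowest deficient value was 3.56 times the highest wild-type value. The means were 22.4 ± 6.70 in deficient and 2.41 ± 1.84 in wild-type cultures (SD, n = 3 each), and the log2 difference of 3.46 ± 0.48 (SE of the limma fit) equals 11-fold. It ranked 1st of all 19575 tested probes by log2 difference, which is how it came to be chosen. The wild-type cultures were far from uniform, since H3 read 4.56 times the value of H2, while the deficient cultures differed by at most 1.84-fold.

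**Figure D1:**
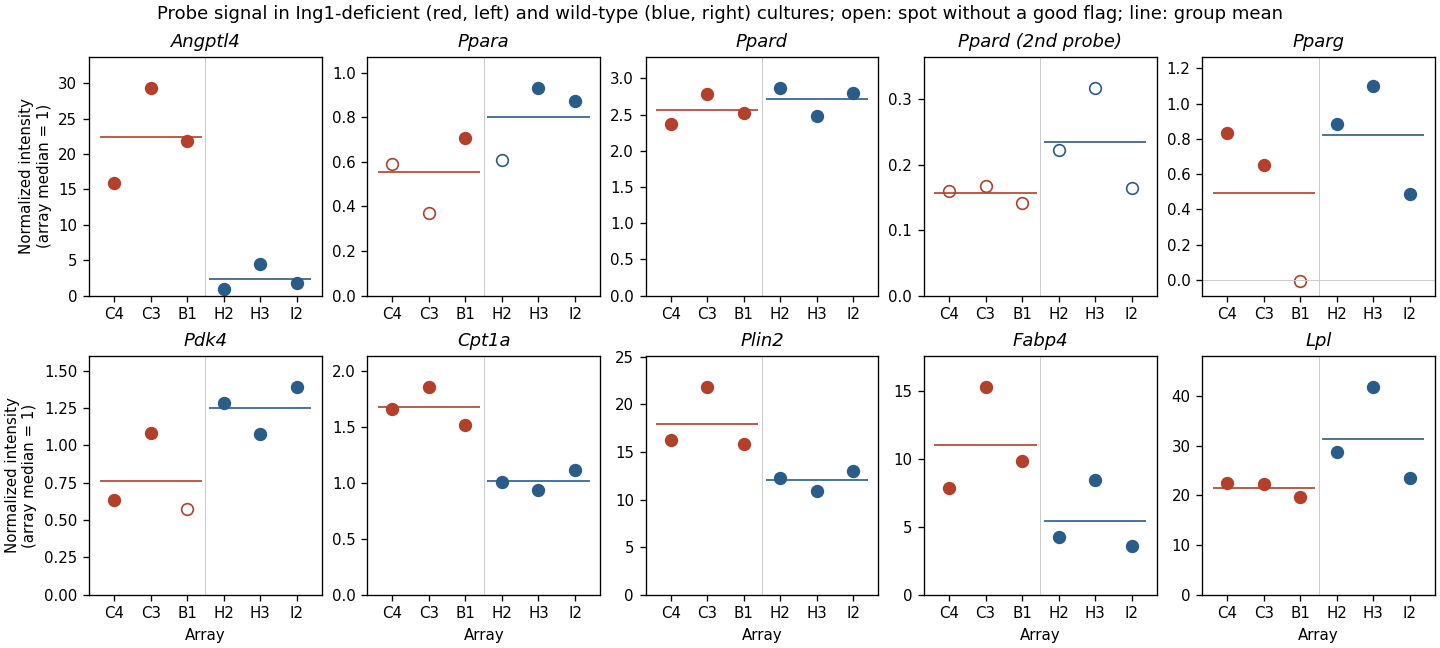
Normalized intensity (array median = 1, linear axis from 0 or just below) of the 10 member probes in each culture, Ing1-deficient in red on the left and wild type in blue on the right. Lines are group means and open points are spots without a good flag. Angptl4 reads 16.0 to 29.3 in deficient and 0.982 to 4.48 in wild-type cultures, while the other genes differ far less.

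The receptor genes showed no difference of that kind. Ppard, read by a probe with good flags throughout, gave 2.37, 2.79 and 2.53 in C4, C3 and B1, against 2.87, 2.48 and 2.80 in H2, H3 and I2. The groups overlapped, and the log2 difference was -0.09 ± 0.15 with a 95% interval of -0.43 to 0.26 (limma adjusted p = 0.767). A second Ppard probe was flagged low on all 6 arrays, at 0.141 to 0.168 in deficient and 0.165 to 0.317 in wild-type cultures, and was not tested.

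Pparg, the adipocyte receptor gene, was dim on every array. It read 0.833, 0.649 and -0.006 in C4, C3 and B1, with the B1 spot flagged low, against 0.882, 1.10 and 0.485 in H2, H3 and I2. The groups overlapped, with a log2 difference of -0.28 ± 0.25 and a 95% interval of -0.85 to 0.29 (limma adjusted p = 0.525). That difference rests on a floor of 0.57 units set for all probes, which the B1 and I2 spots lay below. Ppara, the oxidation-linked receptor gene, had a good flag only in B1, H3 and I2. It read 0.590, 0.371 and 0.706 in C4, C3 and B1, against 0.609, 0.932 and 0.872 in H2, H3 and I2, and it did not meet the flag filter for a test.

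Of the 7 lipid and receptor genes tested beside Angptl4, 1 rose, 0 fell and 6 did not pass limma's test at an adjusted p under 0.05. Over all tested probes 4.94% were called higher and 1.63% lower, and nothing is read from the members' count, since Angptl4 was picked from this comparison. At an unadjusted p under 0.05 there were 5 of the 7, with Cpt1a, Plin2 and Fabp4 higher and Pdk4 and Lpl lower, while 26.2% of all tested probes had such a p in either direction. Of the 7, Pdk4 and Pparg met the flag filter only through the wild-type group, where they read higher. The differences of the 7 had both signs, 3 above and 4 below 0, with a median of -0.09. The largest was 2.11-fold, that of Fabp4.

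Cpt1a, the carnitine palmitoyltransferase that admits long-chain fatty acids to mitochondria, was the gene that rose. It read 1.66, 1.85 and 1.52 in C4, C3 and B1, against 1.01, 0.940 and 1.11 in H2, H3 and I2, all with good flags. The groups did not overlap, and the means were 1.68 ± 0.170 in deficient and 1.02 ± 0.0868 in wild-type cultures (SD, n = 3 each). The log2 difference was 0.72 ± 0.16, or 1.64-fold (limma adjusted p = 0.0357). These values lie near the median of the array, and the call was lost under normexp background correction, where the log2 difference was 0.24 (adjusted p = 0.121). It was also lost when any 1 array other than H3 was left out, with log2 differences of 0.64 to 0.79 over all 6 such fits.

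Pdk4, the kinase that shuts pyruvate out of oxidation, read lower in deficient cells by a margin that did not pass. Its probe gave 0.632, 1.082 and 0.576 in C4, C3 and B1, against 1.28, 1.075 and 1.39 in H2, H3 and I2, and the B1 spot was flagged low. C3 overlapped the wild-type range through H3, while C4 and B1 lay below it. The log2 difference was -0.76 ± 0.24 with a 95% interval of -1.31 to -0.21 (limma adjusted p = 0.0924). The difference was -0.20 under normexp and -0.15 with the floor doubled to 1.14. With 1 array left out it ran from -0.59 without B1 to -1.04 without C3, the one such fit in which it passed (adjusted p = 0.0404).

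Plin2, the lipid droplet coat protein gene, read 16.2, 21.8 and 15.9 in C4, C3 and B1, against 12.2, 10.9 and 13.0 in H2, H3 and I2. The groups did not overlap, and the means were 18.0 ± 3.32 in deficient and 12.1 ± 1.04 in wild-type cultures (SD, n = 3 each). The log2 difference of 0.56 ± 0.18, or 1.48-fold, did not pass (limma adjusted p = 0.0854).

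Fabp4, a fatty acid carrier of adipocytes and macrophages, read 7.82, 15.3 and 9.88 in C4, C3 and B1, against 4.21, 8.43 and 3.55 in H2, H3 and I2. All spots had good flags, and the groups overlapped, as H3 lay above C4. The log2 difference was 1.08 ± 0.34 (limma adjusted p = 0.0912). With 1 array left out it ran from 0.81 without C3 (adjusted p = 0.21) to 1.45 without H3, the one such fit in which it passed (adjusted p = 0.015).

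Lpl, the gene of the lipase that Angptl4 inhibits, read 22.5, 22.3 and 19.7 in C4, C3 and B1, against 28.8, 41.7 and 23.5 in H2, H3 and I2. Every deficient value lay below every wild-type value, by a narrow margin at I2. The means were 21.5 ± 1.53 in deficient and 31.3 ± 9.39 in wild-type cultures (SD, n = 3 each), and the log2 difference of -0.51 ± 0.22 did not pass (limma adjusted p = 0.177). Without H3 it was -0.28, since H3 gave the highest Lpl value of the 6.

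Non-overlap of the groups was common on these arrays. Among all tested probes the groups did not overlap for 20.0% with the deficient cultures higher and for 11.2% with them lower. Of the 7 genes, Cpt1a and Plin2 were such on the higher side and Lpl on the lower. Under the selection rule in the labels, a ratio over 2 or under 0.5 with an unadjusted p under 0.05 in the methods' t-test, 0 of the 7 passed, while 2.38% of all probes passed on the higher side and 0.720% on the lower. Under that test Fabp4 had the ratio but not the p-value.

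**Figure D2:**
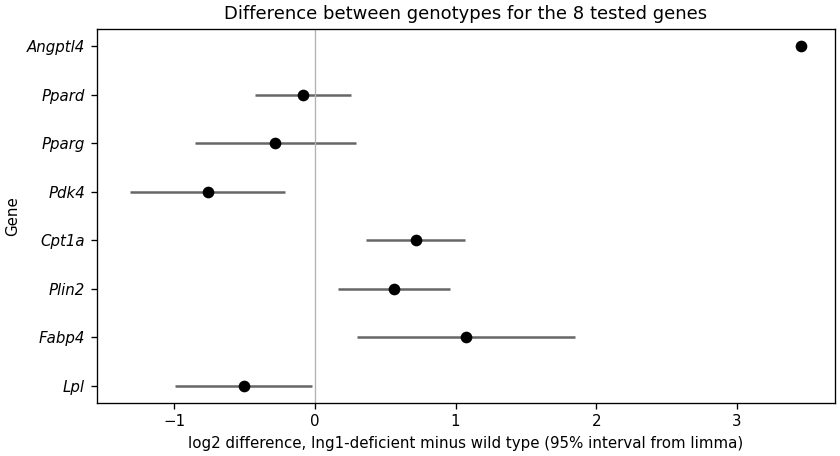
Log2 difference, Ing1-deficient minus wild type, of the 8 tested genes (points) with the 95% interval of the limma fit (lines). Angptl4, at 3.46, has no interval because it was chosen for this difference. The other 7 lie between -0.76 (Pdk4) and 1.08 (Fabp4).

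C3 and H3 gave the highest value of their group in several of these genes. Of the 8 tested genes, 6 had their highest deficient value in C3, the exceptions being Pparg and Lpl, which were highest in C4. In the wild-type group 4 of the 8 were highest in H3: Angptl4, Pparg, Fabp4 and Lpl. How often C3 or H3 was highest over all tested probes was not counted, so nothing is read from these counts. On the log2 scale H3 lay above the mean of H2 and I2 by 1.77 for Angptl4, by 1.12 for Fabp4 and by 0.68 for Lpl. For Cpt1a and Plin2 the same difference was -0.17 and -0.20. Thus H3 was nearer the deficient cultures in Angptl4 and Fabp4, but lay farther from them in Lpl, Cpt1a and Plin2. C3 lay above the mean of C4 and B1 by 0.65 for Angptl4, 0.80 for Fabp4, 0.84 for Pdk4 and 0.44 for Plin2.

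**Figure D3:**
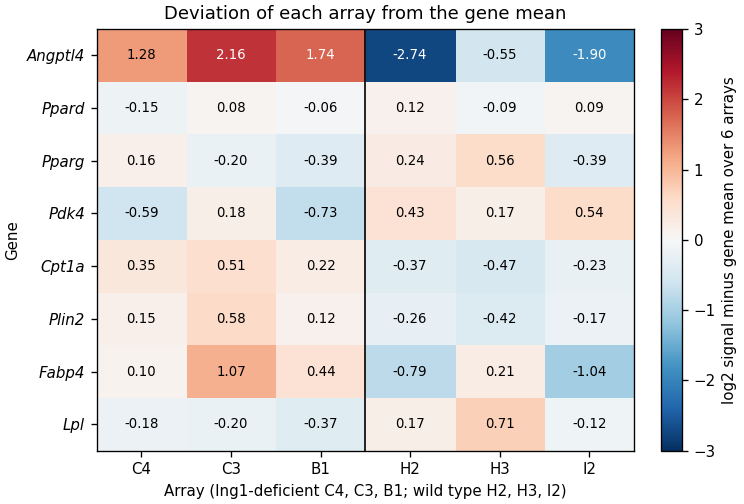
Log2 signal of each array minus the gene's mean over the 6 arrays, for the 8 tested genes (rows), with Ing1-deficient arrays to the left of the black line and wild-type arrays to the right. Red is above and blue below the gene's mean. The Angptl4 row splits by genotype with H3 the least low of the wild-type arrays, and C3 is the highest deficient array in 6 of the 8 rows.

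Macrophages, which can be present in embryo-derived cultures, also express Fabp4, Lpl, Plin2 and Cd36. Of the 15 tested macrophage markers C1qa, C1qb and Mrc1 rose, 0 fell, and the median log2 difference was 0.99. At an unadjusted limma p under 0.05 there were 8, against 28.2% of all genes. Of the 15, 14 lay above 0, the exception being Cd163 (-0.63, not past the threshold). Over all tested genes, each by its brightest probe, 6.02% were called higher and 1.61% lower, with a median of 0.07. Mrc1 met the flag filter only through the deficient group, where it read higher, with 1 good wild-type spot. Of 20 listed 18 had a probe, 13 of them with a good flag on all 6 arrays, and Ptprc, the pan-leukocyte CD45 gene, had none on any array. Their summed signal was 83.0, 241 and 128 in C4, C3 and B1, against 96.9, 60.9 and 43.6 in H2, H3 and I2. In the deficient cultures this sum had the same order as Angptl4 and Fabp4, with C3 highest, then B1, then C4. In the wild-type cultures it did not, as the sum was highest in H2, where Angptl4 was lowest, while Angptl4 and Fabp4 were highest in H3. Its part in these results was not tested. In such cultures a change in the share of a cell type and a change in RNA per cell cannot be told apart. Of 14 endothelial markers 7 had no good flag on any array, Cdh5 and Pecam1 among them, and the sums were 11.1 to 12.2 in deficient and 9.54 to 11.8 in wild-type cultures. In limma 0 of 4 tested endothelial, 0 of 6 hepatocyte and 0 of 12 skeletal muscle markers passed, with 0, 1 and 1 at an unadjusted p under 0.05. Their medians were 0.03, -0.57 and 0.57, with 3, 1 and 11 genes above 0. The hepatocyte sums were 25.0, 14.1 and 8.79 in C4, C3 and B1, against 38.4, 37.4 and 8.79 in H2, H3 and I2. The muscle sums were 176, 45.2 and 89.0 in C4, C3 and B1, against 71.5, 74.0 and 58.0 in H2, H3 and I2, an order unlike that of Angptl4. Of the 18 fibroblast markers Twist2, Thy1 and Lum rose and 0 fell, with 6 at an unadjusted p under 0.05, 14 above 0 and a median of 0.27.

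Genes whose signal followed that of Angptl4 most closely over the 6 arrays were sought among 10777 probes with good flags throughout. The 8 highest Pearson correlations, 0.991 to 0.995, belonged to 1600012H06Rik, Tepsin, Gpn2, Snrpb, Gm12258, Fads3, Zdhhc5 and Plekhm3. Their differences were far smaller than that of Angptl4, between 1.35-fold for Snrpb and 1.73-fold for Gm12258. For example, Fads3, a gene of the fatty acid desaturase family, read 4.49, 4.74 and 4.81 in C4, C3 and B1, against 2.69, 3.32 and 2.86 in H2, H3 and I2. Among the members the correlation with Angptl4 was 0.90 for Fabp4, 0.87 for Cpt1a, 0.80 for Plin2, -0.49 for Lpl and -0.50 for Ppard. Fabp4, Cpt1a and Plin2 thereby ranked 876th, 1185th and 1824th of the 10777 probes. The 6 points fall into 2 genotypes and share arrays and scaling, so these values only describe likeness.

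Other genes of the pathway were taken from lists set by function and are given beside the shares over all genes. Over the 11893 genes tested by their brightest probe, 6.02% were called higher and 1.61% lower in deficient cells, 28.2% had an unadjusted p under 0.05 in either direction, and the median log2 difference was 0.07. The oxidation, droplet and uptake lists together, without the members, held 56 tested genes. Of these 3 rose (5.36%), 0 fell and 53 did not pass in limma, 10 had an unadjusted p under 0.05, and the median was 0.04. The share that rose was near that over all genes, so nothing is read from the count.

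Among 27 tested genes of fatty acid oxidation that PPARs regulate, 2 rose, 0 fell and 25 did not pass, with a median of 0.14 and 7 at an unadjusted p under 0.05. Without the members Cpt1a and Pdk4, 25 were tested, of which 1 rose, 0 fell and 5 had such a p, with a median of 0.14. Beside Cpt1a the one that rose was Acaa2, the mitochondrial thiolase of the last step of the cycle. Acaa2 read 16.4, 16.4 and 15.9 in C4, C3 and B1, against 7.89, 11.1 and 10.3 in H2, H3 and I2 (0.75 ± 0.17, limma adjusted p = 0.0388). The groups lay apart, and the deficient cultures were nearly equal. Fgf21, named after its values were seen, had the largest difference of the list, -1.64 ± 0.475, and did not pass (limma adjusted p = 0.0715). Of the 27 genes 19 lay above 0. Among the 7 at an unadjusted p under 0.05, Fgf21 and Pdk4 were lower. The probes of Hadhb, a subunit of the mitochondrial trifunctional protein, disagreed: the brighter gave 0.56 (adjusted p = 0.0764) and the dimmer fell by 0.88 on the log2 scale (adjusted p = 0.0411), a pair named after its values were seen.

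Of 18 tested lipid droplet and lipolysis genes 0 passed in limma, 3 had an unadjusted p under 0.05, and the methods' t-test called 0 after adjustment. The list median was -0.09. Without the member Plin2, 17 were tested, of which 0 passed and 2 had such a p, with a median of -0.10. The lowest p-values were those of Abhd5 and Agpat2. Abhd5, the coactivator of adipose triglyceride lipase, gave 0.63 ± 0.18 (limma adjusted p = 0.0659). Its probe met the flag filter only through the deficient group, where it read higher, with 2 good wild-type spots. Agpat2, an acyltransferase of triglyceride synthesis, gave 0.53 ± 0.16 (adjusted p = 0.0798).

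Of 16 tested genes of fatty acid uptake and transport 2 rose, 0 fell and 14 did not pass, 5 had an unadjusted p under 0.05, and the median was 0.09. Without the members Fabp4 and Lpl, 14 were tested, of which 2 rose, 0 fell and 3 had such a p, with a median of 0.09. Slc27a4, a fatty acid transport protein gene, read 7.92, 6.09 and 6.33 in C4, C3 and B1, against 3.11, 4.26 and 3.83 in H2, H3 and I2 (0.86 ± 0.18, limma adjusted p = 0.0332). A second Slc27a4 probe gave 0.68 and did not pass (adjusted p = 0.0735). Acsl5, an acyl-CoA synthetase gene, read 6.83, 6.44 and 6.76 in C4, C3 and B1, against 4.01, 4.38 and 4.04 in H2, H3 and I2 (0.69 ± 0.14, adjusted p = 0.0324). In both genes the groups were separate.

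Among 12 tested receptors, partners and coregulators 0 rose and 1 fell, with 3 at an unadjusted p under 0.05 and a median of -0.05. Without the members Ppard and Pparg, 10 were tested, of which 0 rose, 1 fell and 3 had such a p, with a median of 0.08. The gene that fell was Rxra, which encodes a retinoid X receptor that pairs with the PPARs. It read 2.99, 2.31 and 2.34 in C4, C3 and B1, against 11.3, 4.25 and 8.48 in H2, H3 and I2, where the C4 spot was flagged as irregular, so that the probe met the flag filter only through the wild-type group. The wild-type values were widely spread and all lay above the deficient ones (-1.55 ± 0.32, limma adjusted p = 0.0324). A second Rxra probe also fell, by 1.46 on the log2 scale (adjusted p = 0.0361).

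The angiopoietin-like and lipoprotein lipase list did not move as 1 group. Apart from Angptl4 and Lpl it had 12 tested genes, of which 0 rose and 2 fell, with 5 at an unadjusted p under 0.05 and a median of -0.31. Angptl6, another secreted member of the family, read 3.30, 2.96 and 3.89 in C4, C3 and B1, against 7.54, 5.72 and 6.12 in H2, H3 and I2 (-0.93 ± 0.18, limma adjusted p = 0.0291). Apoe, the lipoprotein ligand gene, read 30.8, 20.2 and 15.2 in C4, C3 and B1, against 46.6, 45.4 and 42.2 in H2, H3 and I2 (-1.08 ± 0.24, adjusted p = 0.0367). Both were lower in all 3 deficient cultures than in any wild-type culture, the opposite of Angptl4.

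Of 17 tested genes of adipocyte differentiation 0 rose and 1 fell in limma, with 4 at an unadjusted p under 0.05 and a median of -0.11. Without the members Pparg, Fabp4 and Lpl, 14 were tested, of which 0 rose, 1 fell and 2 had such a p, with a median of -0.07. Klf5, a transcription factor of early adipogenesis, read 4.14, 4.50 and 4.29 in C4, C3 and B1, against 14.2, 6.88 and 9.39 in H2, H3 and I2 (-1.17 ± 0.24, adjusted p = 0.0331). The deficient values were tightly grouped, and the wild-type ones were not.

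Lists for other known inducers of Angptl4 were read the same way. Of 20 tested hypoxia targets 3 rose, 0 fell and 17 did not pass, with a median of 0.28. At an unadjusted p under 0.05 there were 11, with both signs, against 28.2% of all genes. Egln1, an oxygen-sensing hydroxylase gene, read 4.01, 3.44 and 3.21 in C4, C3 and B1, against 1.26, 1.72 and 1.54 in H2, H3 and I2 (1.25 ± 0.17, limma adjusted p = 0.0172). The lactate dehydrogenase gene Ldha also rose (0.99 ± 0.18, adjusted p = 0.0272). So did the mitophagy receptor gene Bnip3 (0.90 ± 0.20, adjusted p = 0.0359). Of the 20 genes 12 lay above 0, while Vegfa (-0.768), Ndrg1 (-0.721) and Adm (-0.715) read lower without passing. The glucocorticoid list held 14 tested genes other than Angptl4 and Pdk4, with the receptor gene Nr3c1 counted among the targets. Of these 0 passed in limma, and the methods' t-test called 0 after adjustment. At an unadjusted p under 0.05 there were 6, with Fkbp5, Errfi1 and Glul higher and Nr3c1, Hsd11b1 and Klf9 lower. The lowest was Nr3c1, at -1.20 ± 0.31 (limma adjusted p = 0.0554). The median of these 14 was -0.07.

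**Figure D4:**
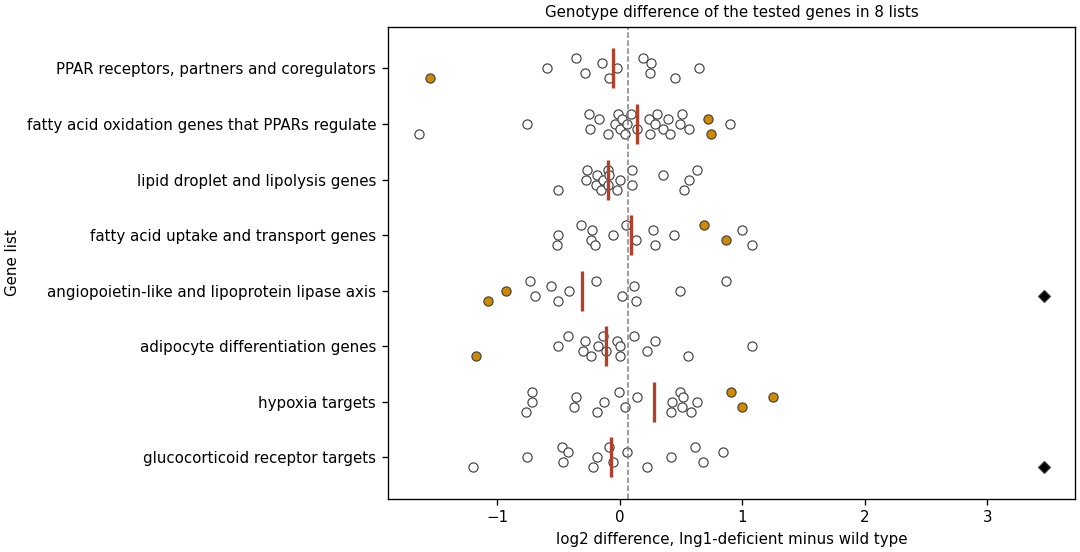
Log2 difference, Ing1-deficient minus wild type, of each tested gene in 8 lists set by function. Orange points passed limma's adjusted threshold, open points did not, the black diamond is Angptl4, red bars are list medians and the dashed line is the median of all genes at 0.07. Angptl4 lies at 3.46, while the highest other gene of the 8 lists is at 1.25.

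The calls on these further genes, like that on Cpt1a, were sensitive to the set of arrays and to the processing. Counting Cpt1a and leaving out Angptl4, which is given no test here, 11 genes of the 8 lists passed, and all 11 passed again without H3. With C4 or with C3 left out 1 passed in each case, Apoe without C4 and Egln1 without C3, and without B1, H2 or I2 limma called 0 of them. Of the 11, 8 passed under normexp, 7 under cyclic loess and 6 under quantile normalization. With the floor at 1.14, 1 passed, with it at 0.01, 1 passed, and with no filter on flags or by the methods' t-test 0. With a good flag required on all arrays 9 passed, as Egln1 and Rxra were not tested. All 11 differences kept their sign in each of these fits in which they were tested, and the fits that leave out an array have 1 fewer.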

How the data were processed

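Labelled RNA of 6 cultures was measured on 1-colour arrays. Per the labels and the file headers, a GenePix scanner and CodeLink Expression Analysis software were used by the authors. The deposited intensity of a spot, recomputed here from the scanner columns, is its mean less the local background median, scaled so that the unmasked transcript probes of the array have a median of 1. The other deposited scanner columns entered only that recomputation and the normexp alternative. The series value table held the same numbers (217362 of 217362 equal). The genome build behind the array's probe design is not given in the sources used here; the promoter windows are RefSeq's, on GRCm38.p6.

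Values under 0.57, the median over arrays of the 1st percentile among good spots, were set to 0.57 before log2. A probe was tested if all 3 spots of either genotype were flagged good, which left 19575, with limma 3.58.1 in R 4.3.3 (lmFit, eBayes, two-sided, Benjamini-Hochberg over those probes, threshold 0.05). The fit was tested on simulated data. Masked spots (105 to 177 per array) were missing values. Of the probes 21615 had 1 symbol, 681 several and 12671 none, and symbols were updated through RefSeq gene IDs (21487 matched).

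In lists a gene was read by its brightest tested probe. Named were Ing1, all members, per list up to 4 called genes of largest difference (or the 2 lowest p-values where none passed), and the 8 genes most correlated with Angptl4. Genes named beyond this rule, such as Hadhb and Fgf21, were named after their values were seen. Members and lists were chosen with earlier results of these data known. The number of arrays limits the precision.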

Additional observations from a re-analysis of the deposited data

How the results depend on the processing

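The log2 difference of Angptl4 was positive in every one of 19 alternatives, from 2.33 under normexp background correction (5.02-fold, against 11-fold as reported) to 4.05 without H3, and 2.96 to 4.05 over the fits that leave out 1 array. Of the 7 other member genes the number called, 1 as reported, was 0 under normexp, with the doubled floor of 1.14, with the floor of 0.01, with no filter on flags and by the methods' t-test, both adjusted and under the labels' ratio rule. It was 4 with array weights and 6 with the leading letter of the culture name as a random block, a fit whose estimated correlation within letters was -0.886. It ran from 0 to 2 when 1 array was left out. In the random-block fit each letter lay within 1 genotype, where a negative correlation lowers the standard errors, so nothing is read from its calls. Over all probes the count, 1286 as reported, was 576 under normexp, 739 under quantile and 750 under cyclic loess normalization, 191 with the doubled floor, 275 with the low floor, 20 with no filter on flags, 4720 with array weights, 12903 with the random block, 7 by the methods' t-test after adjustment and 606 under the labels' rule. It ran from 5 without B1 to 2725 without H3. The share of higher calls, 75.2% as reported, was 60.8% under quantile normalization. Restricting the fit to probes masked on no array, an alternative chosen after seeing the data, left Cpt1a as the member called. No paired analysis was possible because the genotypes share only 1 replicate number, and no letter holds both genotypes. Background and floor moved several values: the log2 difference of Cpt1a was 0.24 and that of Pdk4 -0.20 under normexp, and that of Pparg ran from -2.15 with the low floor to 0 with the doubled one.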
